A study of Mus musculus with 76 samples.

Results

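The libraries of right ventricular (RV) tissue richest in the atrial light chain transcript Myl7 were set against those poorest in it. The members were chosen by Myl7 CPM, which is the count of the gene scaled by the total of its library, over 75 of the 76 libraries. The 15 libraries with the highest Myl7 CPM are called rich below, the 15 with the lowest are called poor, and the other 45 lie between them. Myl7 itself is described without a test, because its values formed the sets. All mice were C57Bl/6J, and the RNA was sequenced as poly-A libraries. Sham mice on a normal diet (ND) numbered 10 males and 9 females, and sham mice on a Western diet (WD) 10 males and 10 females, all with a dose of 0 cGy. The WD mice ate that diet from 300 to 425 d of age and were on normal chow from then until collection. Irradiated mice were all on ND: 10 males and 8 females received gamma rays at 100 cGy, and 8 males and 10 females a mixed field at 50 cGy. The sham mice were collected at 530 d in both sexes, at 640 d in females or at 750 d in males; ages of the irradiated mice are not in the sources used here. Library F16 was ranked in neither set, because its labels name gamma rays with a dose of 0 cGy.

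Library totals ran from 11426111 to 22009351 gene counts over the 75 libraries, with a median of 15240229. The authors counted reads only over the last 500 bp of each gene, so gene length enters the counts little. In the rich libraries the total was between 12825892 and 18495282 (median 14855868), and in the poor between 12749294 and 21919986 (median 15013515).

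The labels were checked first. Xist RNA, made from the inactive X chromosome, was at 1.03 CPM in the library labelled F39 and at 36.8 CPM or more in the other female libraries. Ddx3y, a gene of the Y chromosome, had no counts in F39 and was at 34.8 CPM or more in every male library, where Xist reached 0.758 CPM at most. F39 is a female ND gamma library and lies between the sets, so the comparison of the sets does not use it. Several libraries listed as separate samples also had almost the same counts. Each of the 2850 pairs of the 76 libraries was given a chi-square of its differences relative to counting error, averaged over 10784 genes, for which counting error alone gives about 1. In 21 pairs this mean was between 1.69 and 3.30, the next pair had 5.66, and the median of the other pairs was 106. These pairs joined 24 libraries into 10 groups. F6 and F7 were near-identical among the rich libraries, and F22 with F24 and F33 with F35 among the poor. F21 and F23 were another pair, with F21 poor and F23 between, and F32, which lies just outside the poor set, was near-identical to F33 and F35. M21, a male ND mix library, was near-identical to the male WD sham libraries M12 to M15, which have another label. The values do not show whether these libraries came from separate mice. They are separate samples in the labels and were kept so in the main fits, and the main counts and tests are also given with near-identical libraries of 1 condition counted once.

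The atria and the ventricles of the heart use different versions of the same contractile proteins. Myl7 and Myl4 are the regulatory and essential myosin light chains of atrial muscle, where ventricular muscle has Myl2 and Myl3, and Sln encodes sarcolipin, a small membrane protein that restrains the calcium pump of the sarcoplasmic reticulum in the atrium. The right atrium joins the right ventricle at the tricuspid valve, and atrial muscle also secretes natriuretic peptide from granules that atrial cells hold and healthy adult ventricular cells mostly lack.

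Promoter windows of 4 of the genes that moved together are shown so that their sequences can be compared. They run from 250 bases before to 50 bases after the start of each gene in RefSeq, build GRCm38.p6, written 5′ to 3′ along the strand of the gene. The windows are chr11:5898733-5899032, minus strand for Myl7, chr11:104550413-104550712, plus strand for Myl4, chr3:108364661-108364960, plus strand for Mybphl, which encodes an atrial myosin-binding protein, and chr4:148000472-148000771, plus strand for Nppa, which encodes the natriuretic peptide. Capitals mark a match on either strand to the motifs searched: AGATAA for GATA factors, the 10-letter MEF2 motif, AGGTGT for T-box factors and AGGTCA, a nuclear receptor half-site. Of the 5 genes looked up by symbol, these 4 were in the promoter table and Sln was not.
Myl7: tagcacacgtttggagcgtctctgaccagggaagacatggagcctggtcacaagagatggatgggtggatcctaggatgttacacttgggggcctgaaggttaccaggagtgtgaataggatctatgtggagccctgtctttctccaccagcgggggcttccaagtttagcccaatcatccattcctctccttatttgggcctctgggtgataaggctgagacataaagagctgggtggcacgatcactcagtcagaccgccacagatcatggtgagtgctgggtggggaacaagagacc
Myl4: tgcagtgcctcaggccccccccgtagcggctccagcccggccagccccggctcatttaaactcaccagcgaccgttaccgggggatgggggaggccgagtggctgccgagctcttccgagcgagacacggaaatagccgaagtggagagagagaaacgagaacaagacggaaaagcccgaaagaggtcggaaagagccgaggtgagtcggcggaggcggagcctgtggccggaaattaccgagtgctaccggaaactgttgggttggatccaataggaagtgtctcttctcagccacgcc
Mybphl: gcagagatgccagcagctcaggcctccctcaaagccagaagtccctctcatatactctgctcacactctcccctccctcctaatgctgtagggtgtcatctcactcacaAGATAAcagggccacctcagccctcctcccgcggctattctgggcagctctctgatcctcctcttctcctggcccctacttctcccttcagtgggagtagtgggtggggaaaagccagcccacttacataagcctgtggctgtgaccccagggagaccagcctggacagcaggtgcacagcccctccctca
Nppa: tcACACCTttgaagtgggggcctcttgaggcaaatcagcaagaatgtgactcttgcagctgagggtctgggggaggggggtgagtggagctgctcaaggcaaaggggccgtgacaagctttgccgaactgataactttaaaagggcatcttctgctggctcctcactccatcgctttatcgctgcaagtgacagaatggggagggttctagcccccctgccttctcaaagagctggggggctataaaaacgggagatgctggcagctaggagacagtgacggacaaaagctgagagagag
Of 32851 promoter windows, 11.2% held AGATAA, 3.69% the MEF2 motif, 13.7% AGGTGT and 16.3% AGGTCA. The Mybphl window held 1 match to AGATAA and the Nppa window 1 match to AGGTGT, while none of the 4 motifs was found in the Myl7 or Myl4 windows. A match describes the letters of the window and not a site in use.

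Myl7 was between 267 and 3723 CPM in the rich libraries (median 576) and between 0.0731 and 0.333 CPM in the poor (median 0.142). The 15th library, M7, had 267 CPM and the next, M38, had 248 CPM. At the other edge, F33 had 0.333 CPM from 5 counts and F32, just outside the poor set, had 0.436 CPM from 6 counts. The upper edge therefore cut through a continuous series, and the order near the lower edge rests on a few counts. M31 (3723 CPM), M26 (2936 CPM) and M27 (1958 CPM) were the highest, followed by M37 (1104 CPM) and F15 (1068 CPM).

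**Figure D1:**
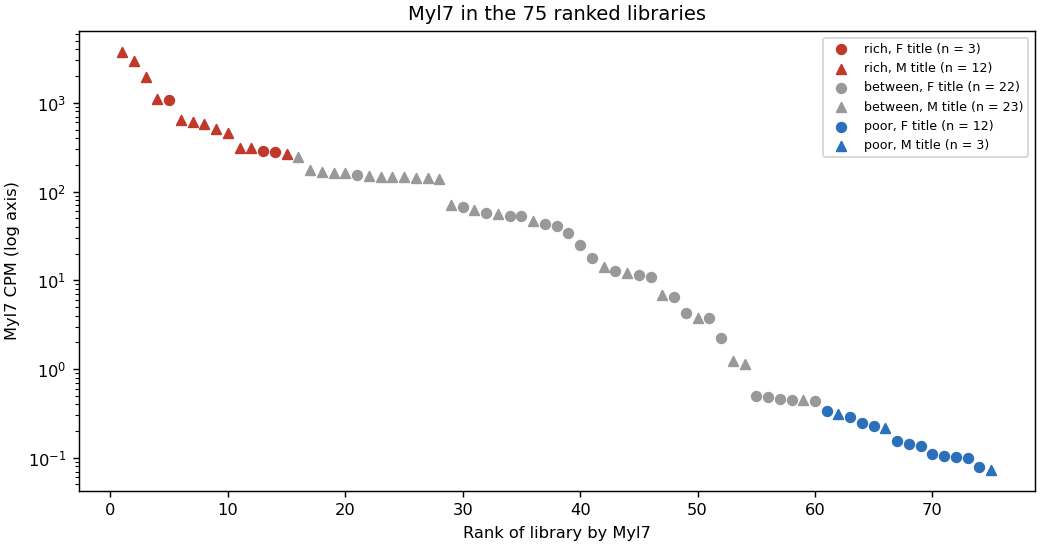
Myl7 CPM on a log axis for the 75 ranked libraries, by rank, with circles for F and triangles for M titles and colours for the sets. The 15 rich libraries lie at 267 CPM or more, the 15 poor at 0.333 CPM or less, and 12 of the rich but 3 of the poor have M titles.

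The sets did not hold the conditions evenly. Rich libraries comprised 6 male ND sham, 4 male ND gamma, 2 male WD sham, 2 female ND sham and 1 female WD sham. Poor libraries comprised 6 female ND mix, 3 female WD sham, 2 female ND sham and 1 each of female ND gamma, male ND gamma, male ND mix and male WD sham. Males made up 12 of 15 rich and 3 of 15 poor libraries (Fisher's exact test, two-sided, p = 0.00281, adjusted p = 0.00844 over 3 tests). Among the sham libraries, WD accounted for 3 of 11 rich and 4 of 6 poor (Fisher's exact test, two-sided, p = 0.162, adjusted p = 0.162). Irradiated libraries were 4 of 12 rich and 9 of 11 poor on ND (Fisher's exact test, two-sided, p = 0.0361, adjusted p = 0.0541), which missed the threshold after adjustment. With near-identical libraries counted once, males were 12 of 14 rich and 3 of 13 poor (Fisher's exact test, adjusted p = 0.00551). Counted so, WD was 3 of 10 and 3 of 5 of the sham libraries (Fisher's exact test, adjusted p = 0.329), and irradiated libraries were 4 of 11 and 8 of 10 on ND (adjusted p = 0.121). Over whole conditions the median Myl7 was 363 CPM in male ND sham, 211 in male ND gamma, 141 in male WD sham, 58.9 in male ND mix, 29.3 in female ND gamma, 4.33 in female ND sham, 1.37 in female WD sham and 0.268 in female ND mix. Every condition spanned a wide range, for example 0.215 to 3723 CPM in male WD sham and 0.0983 to 1068 CPM in female WD sham, so the conditions overlapped.

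RNA quality was tested because it did not choose the sets. The library total scaled the Myl7 CPM that chose them, so it is described without a test. The RIN was 6.67 ± 1.77 (SD, n = 15) in the rich and 7.21 ± 0.78 (SD, n = 15) in the poor libraries, a difference of -0.54 (permutation test, two-sided, p = 0.294). It ranged from 3.6 to 8.8 in the rich and from 5.9 to 8.5 in the poor libraries. Among F titles the difference was 0.592 (n = 3 and 12, exact permutation test, p = 0.242) and among M titles -1.44 (n = 12 and 3, exact permutation test, p = 0.259). Total counts were 15336543 ± 1818446 (SD, n = 15) in the rich and 16248184 ± 3063521 (SD, n = 15) in the poor libraries. Counting near-identical libraries once gave differences of -0.593 in RIN (n = 14 and 13, permutation test, p = 0.294) and -713907 in total counts.

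The sets were compared gene by gene with edgeR's quasi-likelihood test, with the M or F title as covariate, over 13772 genes with a mean of at least 1 CPM in the 75 libraries. At an edgeR adjusted p under 0.05, 226 genes differed (1.64% of those tested): 186 were higher in the rich libraries (1.35%) and 40 were lower (0.290%). With near-identical libraries counted once, 189 genes differed, 160 higher and 29 lower. The test is of an association with the Myl7 sets in bulk tissue, so fewer cells of a type and less RNA per cell cannot be told apart. In the 45 libraries between the sets, the slope of each gene on log2 Myl7 CPM was tested over the same genes. There 2851 genes passed (20.7%), 1474 with a positive slope (10.7%) and 1377 with a negative one (10%). Counting near-identical libraries once left 37 of these 45 samples and 994 genes past the threshold, 525 positive and 469 negative. Of the 186 genes higher in the rich libraries, 172 had a positive slope and 92 passed, which is 49.5% of the 186 and 6.24% of the 1474. Of the 40 lower genes, 35 had a negative slope and 9 passed (22.5% of the 40 and 0.654% of the 1377). No gene passed in both comparisons with opposite signs.

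**Figure D2:**
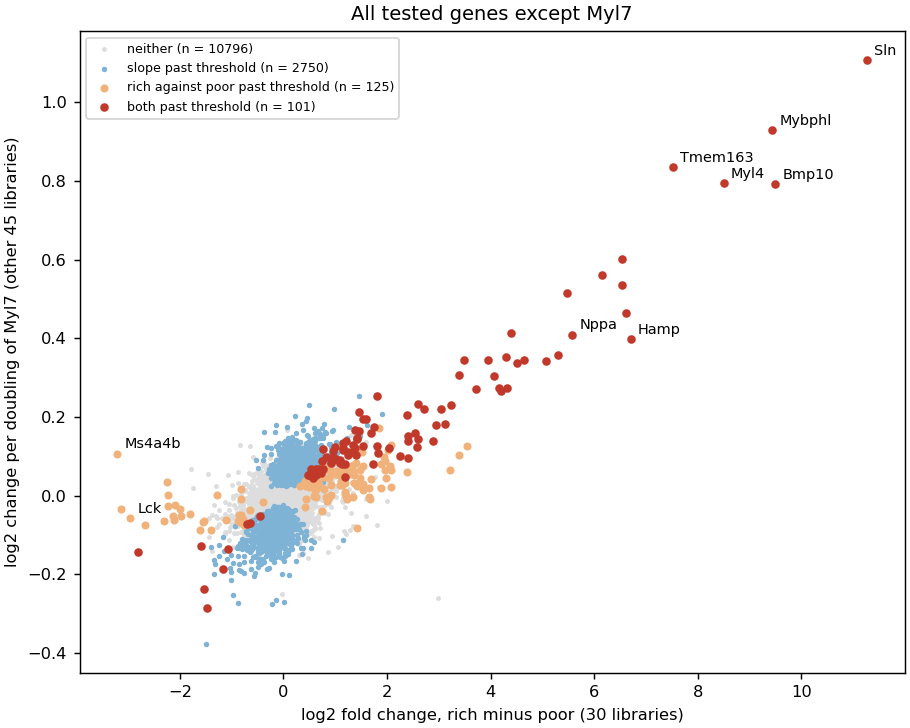
Each point is a tested gene, with its log2 fold change between the sets on the horizontal axis and its log2 change per doubling of Myl7 in the other 45 libraries on the vertical axis; colours give which test it passed. Sln, Mybphl, Tmem163, Myl4 and Bmp10 lie farthest to the upper right, and 101 genes passed both.

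The atrial light chain Myl4 (ENSMUSG00000061086, GRCm39, chromosome 11, 104440903 to 104486603) was between 419 and 8044 CPM in the rich libraries (median 1221) and between 2.19 and 5.05 CPM in the poor (median 3.37). All 15 rich libraries were above every poor one. The sets differed by 8.50 in log2 (standard error 0.50, edgeR adjusted p = 7.01e-14). Between the sets its slope was 0.79 (standard error 0.03, edgeR adjusted p = 2.16e-27), that is a change of 0.79 in log2 for each doubling of Myl7. Sln (ENSMUSG00000042045, GRCm39, chromosome 9, 53742537 to 53761846) was between 92.5 and 1677 CPM in the rich libraries (median 250) and between 0 and 0.428 CPM in the poor (median 0.102), where it had 29 counts in all and none in 3 libraries. Sln rose by 11.27 in log2 (standard error 0.64, edgeR adjusted p = 4.57e-14), and its slope was 1.11 (standard error 0.05, edgeR adjusted p = 2.15e-24). Sln thus fell to the level of single reads where Myl7 did, whereas Myl4 kept a few CPM in every poor library.

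Both genes kept a narrow ratio to Myl7 across the rich libraries. Myl4 was between 1.27 and 2.74 times Myl7 (median 1.76), and Sln between 0.302 and 0.571 times (median 0.441). In the 45 libraries between the sets, Myl4 (Spearman rho 0.986, n = 45), Sln (0.974) and Mybphl (0.963) followed Myl7 most closely, and then Fgf12 (0.926), Tmem163 (0.899), Lmntd1 (0.881), Cilp2 (0.852), Cacna2d2 (0.840), Hamp (0.837) and Sbk3 (0.837). These values describe libraries that include near-identical ones.

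**Figure D3:**
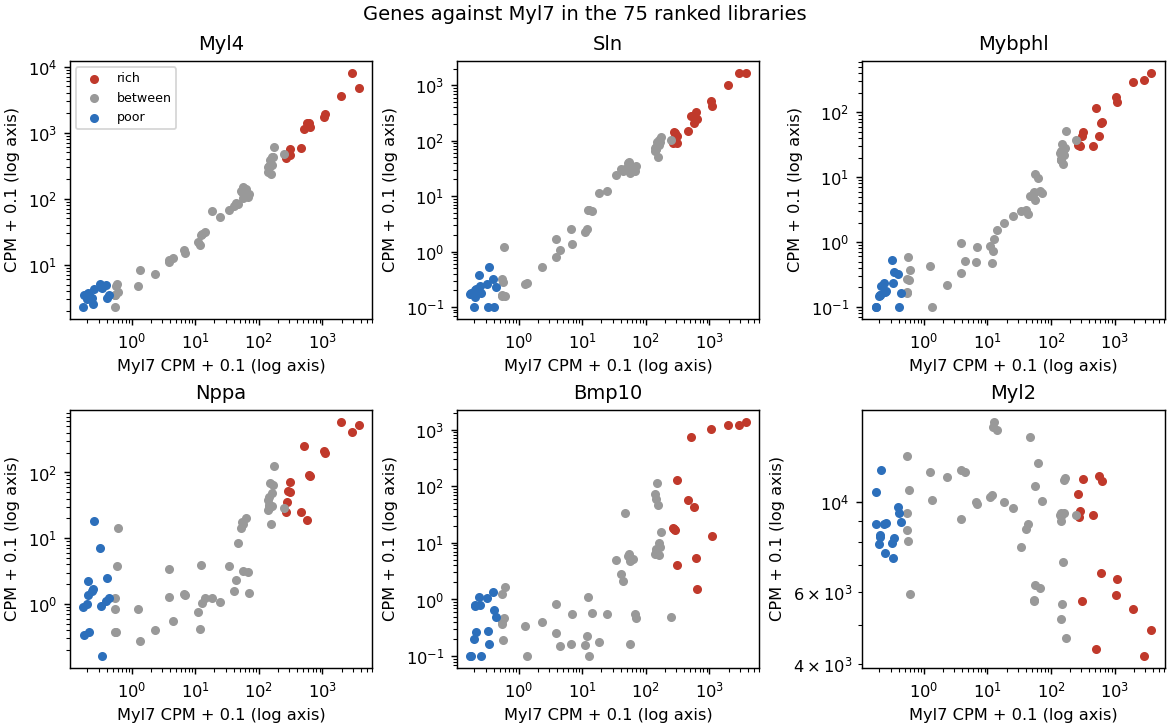
CPM of 6 genes against Myl7 CPM in the 75 ranked libraries, both on log axes with 0.1 added, coloured by set. Myl4, Sln and Mybphl follow a narrow band, and Nppa and Bmp10 scatter widely. Myl2 reaches its lowest value, 4181 CPM, in a rich library, and falls to 4627 CPM between the sets.

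Mybphl was between 30.2 and 404 CPM in the rich libraries (median 68.1) and between 0 and 0.430 CPM in the poor (median 0.0710), without overlap. The difference was 9.43 in log2 (standard error 0.58, edgeR adjusted p = 1.37e-13). Nppa, the peptide hormone gene of atrial granules, was between 18.8 and 588 CPM in the rich libraries (median 88.6) and between 0.0611 and 18.04 CPM in the poor (median 1.13), so the sets did not overlap but nearly met. The difference was 5.58 in log2 (standard error 0.69), with an edgeR adjusted p of 2.44e-06. Pam, whose enzyme amidates peptides and is abundant in atrial granule membranes, was the most abundant gene of the atrial list, with a mean of 569 CPM over the 75 libraries. It was between 241 and 2480 CPM in the rich libraries (median 799) and between 218 and 573 CPM in the poor (median 404). The sets overlapped, with 10 of 15 rich libraries above every poor one, and the difference was 1.80 in log2 (standard error 0.35), with an edgeR adjusted p of 0.00225.

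Of the 20 tested genes of the atrial cardiomyocyte list other than Myl7, 15 were higher in the rich libraries and none was lower. Over all genes tested, 1.35% were higher and 0.290% lower. The median log2 fold change of the list was 2.10 beside 0.01 for all genes tested. The list was written with earlier results of these data known. In the 45 libraries between, 14 had a positive slope past the threshold and 1 a negative one, beside 10.7% and 10% of all genes. The median slope of the list was 0.13 beside -0.003 for all genes. Besides those above, the 15 comprised Bmp10, Dkk3, Fgf12, Kcnj3, Kcnj5, Stard10, Hamp, Tbx5, Gja5 and Cacna2d2. Kcnj3 and Kcnj5 encode the subunits of the potassium channel that acetylcholine opens in atrial muscle, and both rose (log2 fold changes 1.19 and 0.96, edgeR adjusted p = 0.0158 and 0.0416). Kcnj5 passed in 23 of 44 alternatives and Kcnj3 in 37 of 44, so the call of Kcnj5 depends on the fit. Tbx5, a T-box transcription factor of the atria, rose by 1.34 and Gja5, a gap junction protein of atrial muscle and the conduction system, by 1.47. The 5 that did not pass were Kcna5 (-0.58), Hey1 (-0.42), Nr2f1 (0.71), Nr2f2 (0.25) and Kcnk3 (0.27), with edgeR adjusted p between 0.0579 and 0.819. Hey1 was the gene with a negative slope (-0.08). The summed list, Myl7 included, was between 1996 and 19889 CPM in the rich libraries (median 3724) and between 710 and 1157 CPM in the poor (median 945). Myl7 formed the sets, so part of this gap follows from the choice of the libraries. Pam was the most abundant gene of the sum.

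**Figure D4:**
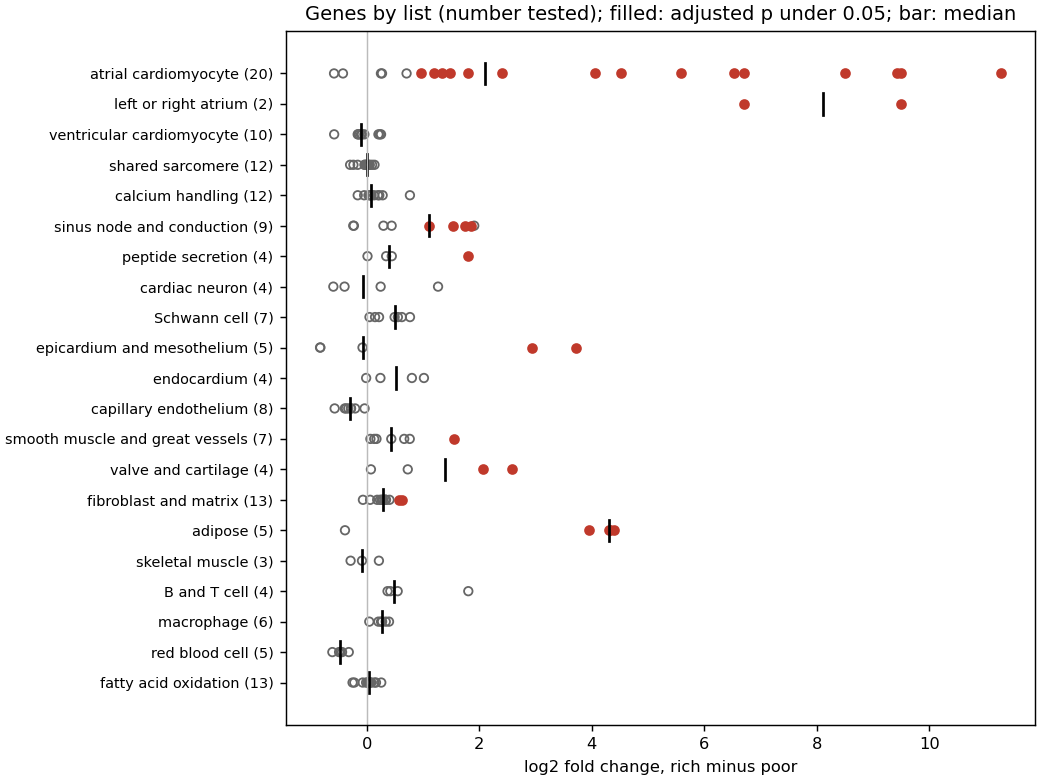
Log2 fold changes between the sets for the tested genes of each list, with filled points past an edgeR adjusted p of 0.05 and a bar at the median. The atrial list reaches 11.27 with Sln, while no gene of the ventricular cardiomyocyte or shared sarcomere lists passed, beside 1.64% of all genes tested.

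Bmp10, a growth factor of right atrial muscle, varied most among the leading genes. It ranged from 1.45 to 1368 CPM in the rich libraries (median 42.4) and from 0 to 1.24 CPM in the poor (median 0.400). The difference was 9.50 in log2 (standard error 1.12), with an edgeR adjusted p of 9.27e-07. The rich libraries split in Bmp10 against Myl7. M31 (1368 CPM), M26 (1227 CPM), M27 (1184 CPM), F15 (1005 CPM) and M18 (740 CPM) were far above the others, of which M20 was the highest at 129 CPM. M37, the fourth richest in Myl7, had 13.1 CPM of Bmp10, and M8 and M39, the next after F15, had 1.45 and 5.21 CPM. The ratio of Bmp10 to Myl7 therefore ran from 0.00230 in M8 to 1.46 in M18. Hamp, the iron hormone hepcidin, which right atrial muscle also makes, was between 3.42 and 193 CPM in the rich libraries (median 12.9) and between 0 and 0.344 CPM in the poor (median 0.0784). The sets did not overlap in Hamp, and the difference was 6.71 in log2 (standard error 0.74), with an edgeR adjusted p of 2.81e-07.

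**Figure D5:**
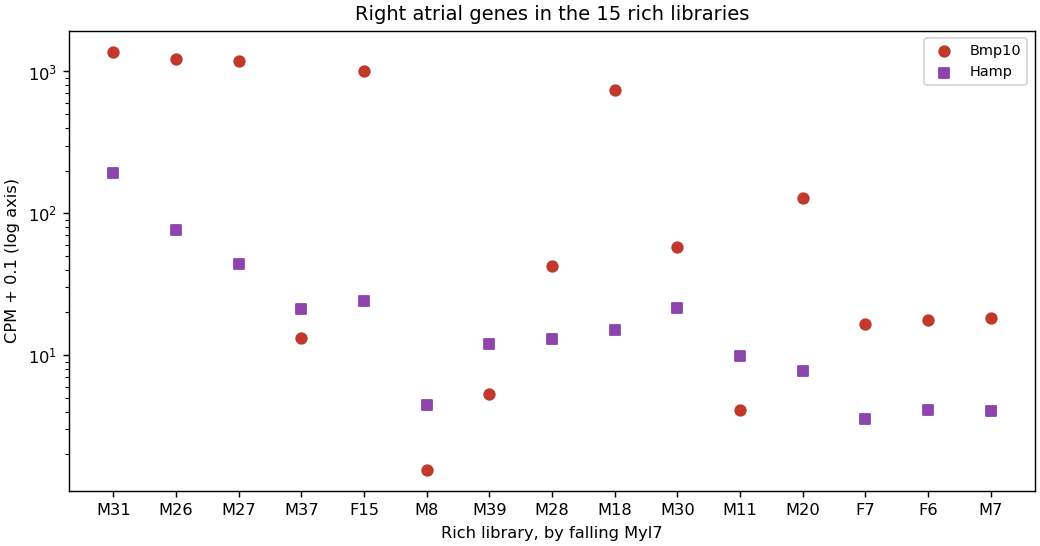
CPM of Bmp10 and Hamp, on a log axis with 0.1 added, in the 15 rich libraries ordered by falling Myl7. Bmp10 is at 740 CPM or more in 5 libraries and at 129 CPM or less in the other 10, and Hamp is highest, at 193 CPM, in M31.

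The other genes with the largest increases that also passed in the 45 libraries were Tmem163, a zinc transporter (log2 fold change 7.51, median 13.5 CPM in rich and 0.0731 in poor), Cilp2, a matrix protein of cartilage (6.62), Mlana, a melanosome protein (6.53), Fgf12, an intracellular modulator of sodium channels (6.53) and Lmntd1 (6.15). Mlana was between 1.82 and 84.5 CPM in the rich libraries (median 5.43) and between 0 and 0.215 CPM in the poor (median 0.0983). All 5 had medians under 1 CPM in the libraries between the sets, from 0.472 (Tmem163) to 0.866 CPM (Lmntd1). Mlana reached the mean needed for a test through the rich libraries, and it also passed with no filter. In 24 of the 13772 genes the lowest rich library was above the highest poor one, all of them among the 186, and in none was the highest rich below the lowest poor.

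Of the 10 ventricular cardiomyocyte genes, none passed between the sets, beside 1.64% of all genes tested, and their median log2 fold change was -0.10. At that share, the lack of calls does not set this list, or the short lists that follow, apart from other genes. Their summed level was between 8482 and 26035 CPM in the rich libraries (median 14765) and between 15895 and 21861 CPM in the poor (median 18095). In the libraries between the sets the level ran from 12553 to 33437 CPM (median 20355). In this sum 8 of 15 rich libraries were below every poor one, with the lowest values in M26 (8482 CPM), M31 (9850 CPM), M27 (11457 CPM) and M18 (11576 CPM), while others such as M11 (26035 CPM) were above every poor one. Myl2, the ventricular regulatory light chain, was between 4181 and 11614 CPM in the rich libraries (median 6688) and between 7284 and 11985 CPM in the poor (median 8836), and 8 of 15 rich libraries were below every poor one. Of these 8, M18, M20, M37 and M39 are male ND gamma libraries, a condition with a Myl2 median of 6090 CPM. Between the sets Myl2 ran from 4627 to 15774 CPM (median 9422), so low Myl2 was not particular to the rich libraries. With the M or F title in the fit the log2 fold change of Myl2 was -0.13 (standard error 0.24, edgeR adjusted p = 0.981). Gja1 and Kcnj2, the main gap junction gene and an inward rectifier channel gene of ventricular muscle, had positive slopes past the threshold in the 45 libraries (0.07 and 0.08). None of the 12 shared sarcomere genes passed in either comparison (median log2 fold change -0.002), and Myh6, the most abundant of them with a mean of 16676 CPM, changed by 0.05. No calcium handling gene passed between the sets, and 6 of 12 had positive slopes, among them the calcium pump gene Atp2a2 (0.11). Over all genes tested, 10.7% had positive and 10% negative slopes past the threshold. Of 13 fatty acid oxidation genes, none passed between the sets and 10 had positive slopes, of 96 respiratory chain genes none and 5, and of 77 cytosolic ribosomal protein genes none, with 1 negative slope.

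Some genes of the sinus node list were also higher. Of 9 tested genes of the sinus node and conduction list, 4 were higher in the rich libraries, beside 1.35% of all genes tested. Among them were the sinus node transcription factor gene Shox2 (log2 fold change 1.74, edgeR adjusted p = 0.00800), the calcium channel gene Cacna1d (1.53, adjusted p = 0.00955) and Rgs6, which shortens G protein signalling (1.10, adjusted p = 0.00622). Shox2 was low, between 0.703 and 7.81 CPM in the rich libraries (median 1.93) and between 0.222 and 1.23 CPM in the poor (median 0.585), and the sets overlapped. Its mean over the 75 libraries was 1.09 CPM, just above the 1 CPM needed for a test, and its median was highest in the rich libraries. With no filter all 11 listed genes were tested and 6 passed. Isl1 had no counts in the poor libraries. In the 45 libraries 4 of the 9 had positive slopes past the threshold, beside 10.7% of all genes tested. Cacna1d did not pass there (slope 0.03, edgeR adjusted p = 0.652). Between the sets 4 of 9 passed with near-identical libraries counted once, 2 in F libraries alone and with the condition group in place of sex, 1 in M libraries alone and 0 in sham libraries alone. Only 1 slope passed with near-identical libraries counted once.

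Markers of other tissues also moved with the sets, and their part in the results was not tested. Of 5 tested adipose genes, Adipoq, Plin1, Cidec and Cfd were higher in the rich libraries, with a median log2 fold change of 4.30, and the same 4 had positive slopes. Over all genes tested, 1.35% were higher and 0.290% lower in the rich libraries, and 10.7% had positive slopes. These shares also stand beside the list counts that follow. Of these, Adipoq, Cidec and Plin1 had means of 1.05, 1.33 and 1.56 CPM, just above the 1 CPM needed for a test, and their medians were highest in the rich libraries. With no filter all 7 listed genes were tested and 5 were higher (median 3.96). The 4 calls remained with near-identical libraries counted once, but 2 passed in M libraries alone and 0 in sham libraries alone, and 3 slopes passed with near-identical libraries counted once or with RIN as covariate. Plin1, which coats the fat droplet, was between 0.471 and 11.4 CPM in the rich libraries (median 4.25) and between 0 and 0.863 CPM in the poor (median 0.182). The sets overlapped, with 12 of 15 rich libraries above every poor one, and the difference was 4.39 in log2 (standard error 0.58), with an edgeR adjusted p of 8.72e-06. Fabp4, the most abundant adipose gene and one that capillaries also express, was at a mean of 827 CPM, did not pass between the sets (-0.39) and had a negative slope (-0.07). Fabp4 made up most of the summed list, which was between 455 and 1443 CPM in the rich and between 478 and 1932 CPM in the poor libraries. Plin1 was lowest among the rich libraries in M26 (0.471 CPM) and highest in M7 (11.4 CPM), the library with the least Myl7 of the set, so its order differed from that of Myl7. The mesothelial genes Upk3b (log2 fold change 3.71) and Msln (2.94) were higher, with Upk3b between 0.606 and 20.97 CPM in the rich and at most 1.27 CPM in the poor libraries, and the list of 5 tested genes had a median of -0.08. Wt1, its most abundant gene, did not pass (-0.83). Of the valve and cartilage list, Comp (2.07) and Fmod (2.59) were 2 of 4 past the threshold. Cnn1 (1.55) was the 1 of 7 smooth muscle genes, and Gsn (0.57) and Dpt (0.63) were the 2 of 13 fibroblast and matrix genes that passed. The slope counts below stand beside 10.7% positive and 10% negative over all genes tested. Lists with no call between the sets were cardiac neuron (4 tested, with Th and Chat at 0 in the poor libraries), Schwann cell (7, with 1 positive slope), endocardium (4), capillary endothelium (8, with 3 negative slopes), skeletal muscle (3, with Myh4 and Tnnc2 at 0 in the poor libraries), B and T cell (4), macrophage (6) and red blood cell (5, with 2 negative slopes). Their most abundant genes were Uchl1, Cnp, Vwf, Aqp1, Tnni2, Ighm, Lyz2 and Hbb-bs. No lung or thymus gene reached 1 CPM on average, and the thymus sum was at most 1.17 CPM in the rich libraries. The lung sum was 56.1 CPM in M11 and at most 3.01 CPM in the other rich libraries, with a rich median of 1.51 CPM and a highest poor value of 3.94 CPM. Of 4 peptide secretion genes tested, Pam alone was higher. The 5 sex check genes did not pass between the sets. They follow the M or F title, which is in the fit, so this lack of calls says nothing about the sets. Uty had a negative slope in the 45 libraries (-0.07, edgeR adjusted p = 0.0494).

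Most genes lower in the rich libraries rested on M36, a male ND gamma library of the poor set. In 25 of the 40, M36 was above all other 29 libraries. Without M36, 137 genes passed, 132 higher and 5 lower, and 4 of the 40 remained past the threshold. Lck, a kinase of T cells named here after its values were seen, was at 55.6 CPM in M36 and had medians of 0.608 CPM in the rich and 0.952 CPM in the poor libraries. Ms4a4b and Tcf7, also T cell genes named after their values were seen, were at 89.9 and 63.9 CPM in M36 with poor medians of 0.590 and 1.27 CPM. Their rich medians, 0.760 and 1.79 CPM, were higher than the poor ones, against the direction of the call. Among the 9 lower genes that also passed in the 45 libraries were Sidt1, Rasal3, Muc4, Gm56171, Mir6236, Dnm3, Clec1a and B3gnt3, with log2 fold changes from -2.81 to -0.45. Sidt1 and Rasal3 were also highest in M36 (40.2 and 53.8 CPM), and the median of Rasal3 was higher in the rich libraries (1.85 CPM) than in the poor (1.38 CPM). Other single libraries weighed in this group too. Mir6236 was at 34.5 CPM in M5, with the next poor library at 10.4 CPM, and its median was higher in the rich libraries (5.24 CPM) than in the poor (3.67 CPM). Its log2 fold change was -1.16 in the fit with sex, and -0.39 without M5, and it passed in 14 of 44 alternatives. Gm56171 was also highest of the sets in M5 (5.78 CPM, next poor 2.55), and without M5 its log2 fold change was -0.80 (edgeR adjusted p = 0.421). Between the sets, M1 stood apart in both genes, with 54.4 CPM of Mir6236 (next 12.1) and 31 CPM of Gm56171 (next 2.15), and their slopes were not tested without it. B3gnt3 also had a higher median in the rich libraries (16.3 CPM) than in the poor (13.9 CPM), with a log2 fold change of -0.45 with sex in the fit and -0.06 without (edgeR adjusted p = 0.810).

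Library F15 weighed most among the higher genes. In 163 of the 186 (87.6%) it was the highest of the 3 rich libraries with an F title, of which F6 and F7 are near-identical, beside 52.5% of all genes tested. F15 also had more Myl7 (1068 CPM) than F7 (287 CPM) and F6 (278 CPM). Genes called higher with the Myl7 sets tend to be highest there, so these shares do not measure its weight. Without F15 124 genes passed, 84 higher and 40 lower, of which 83 of the 186 remained. With each of the 30 libraries left out in turn, Myl4, Sln and Mybphl always passed, with log2 fold changes of 8.29 to 8.78, 10.80 to 11.54 and 8.70 to 9.75. In the F libraries alone, 3 rich and 12 poor, 93 genes passed, all higher. The near-identical F6 and F7 are 2 of those 3, and with near-identical libraries counted once, 2 rich and 10 poor samples gave 74 genes, all higher, in a fit chosen after seeing the data. In the M libraries alone, 12 rich and 3 poor, 43 genes passed (25 higher, 18 lower). For the atrial list the F and M fits gave 14 and 6 of 20 genes, beside 93 and 43 of all 13772 tested. The F fit with near-identical libraries counted once gave 13 of the 20, beside 74 of all 13772. The difference between the sets differed by sex in 0 of 13772 genes (0%) at an edgeR adjusted p under 0.05 (687 at an unadjusted p under 0.05, and 3 with DESeq2: Flt1, Il7r and Ms4a4b). M36, 1 of the 3 poor M libraries, was at 230, 98.9 and 89.9 CPM in these 3 genes, with poor medians of 105, 1.02 and 0.590 CPM. The sham libraries alone, 11 rich and 6 poor, gave 20 genes, all higher, of which 7 were in the atrial list.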

How the data were processed

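The deposited table holds raw counts, which came from reads aligned with STAR 2.7.8a to mm39 (GRCm39) and counted with HTSeq-count 1.99.2 over the last 500 bp of each gene; annotation release and strand setting are not given in the sources used here, so antisense partners cannot be told apart. Of 56941 gene rows, 56323 were named by GENCODE vM39. Libraries are listed as separate samples; conditions and RIN came from the labels and ages from the study's sample list. Genes with a mean of at least 1 CPM over 75 libraries were tested in R 4.3.3 with edgeR 4.0.16 (TMM, quasi-likelihood, Benjamini-Hochberg, threshold 0.05); DESeq2 1.42.0 was an alternative. Slopes used log2 CPM of Myl7 with 0.5 added to the count. Permutation tests drew 100000 resamples, or were exact with fewer than 10 libraries in a set. The workflow was tested on simulated data.

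Genes named are Myl4 and Sln, the 10 largest changes in each direction past the threshold in both comparisons, all members of the atrial and ventricular lists, the most abundant member of each other list with its most changed call (all calls where 5 or fewer), the 10 genes most like Myl7 and the sex check genes. Members and lists were chosen with earlier results of these data known.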

Additional observations from a re-analysis of the deposited data

Results flagged for a closer look

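Within conditions of 8 to 10 libraries, 40 sets of values, Myl7 not among them, were checked for a library far from the rest, and 6 stood out. Chance flags about 1 in 20 groups of normally distributed values. CPM was used without a logarithm and spans several orders of magnitude within a condition, so that rate does not apply to Myl4 and Sln. F15 was far above the other female WD sham libraries in Myl4 (1698 CPM, next 238) and Sln (521 CPM, next 50.5). M31 was far above the other male WD sham libraries in Myl4 (4715 CPM, next 562) and Sln (1643 CPM, next 124). M26 stood above the male ND sham libraries in Myl4 (8044 CPM, next 3626). M37 had the most counts of the male ND gamma libraries (17962038, next 15497913). The flags of Myl4 and Sln are not independent, since both follow Myl7, which formed the sets.

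Library F16, in no condition and outside the ranking, had 2842 CPM of Myl4 and 1047 CPM of Sln, with 1646 CPM of Myl7 and 708 CPM of Bmp10. These values lie within the range of the 15 rich libraries.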

How the results depend on the processing

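Against 226 genes between the sets, the counts that moved by more than 1.5 times were 64 (61 higher) with the study's filter, which tested 11270 genes, 502 with no filter (35234 genes), 1153 without the sex covariate, 97 with the condition group in its place, 359 with 20 against 20, 93 in F and 43 in M libraries alone, 74 in F libraries alone with near-identical libraries counted once (chosen after seeing the data), 20 in sham libraries alone and 1303 for the slope over all 75 libraries. DESeq2 gave 306, its size factors 229, RIN as covariate 250, near-identical libraries counted once 189 and 10 against 10 gave 231. Fewer genes or samples were tested under the filter and in the subsets; for the others the cause was not tested. Leaving out each library in turn gave 124 (without F15) to 264 genes, and 137 without M36. No gene called in both the main fit and an alternative changed sign. No library of the sets went against its sex label.

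In the other 45 libraries, 2851 genes became 994 with near-identical libraries counted once, and 4303 with RIN as covariate. An alternative chosen after seeing the data, counting them once across conditions, gave 690. DESeq2 gave 3191, its size factors 2870, the study's filter 2389, no filter 2785, the condition group 4239, omission of F39 2757 and, also chosen after seeing the data, omission of F23 and F32 3372.

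The set by sex interaction gave 0 genes with edgeR, 3 with DESeq2 and 1 with no filter (ENSMUSG00000043623, at 0.232 CPM in M36, named because it was the only call). The RIN difference was 0.592 in F libraries, against -0.54 in all, and neither passed. Of the 49 named genes past the threshold, 34 to 49 kept it with each library left out. Signs changed for Ms4a4b in F libraries alone (0.288, and 0.3301 with near-identical libraries counted once) and for Rasal3 in F libraries (0.0366), in sham libraries (0.0167) and without M36 (0.0284). With each library left out, Rasal3 ran from -1.844 (without F6) to 0.0284 (without M36). No paired analysis was possible because replicate numbers were given in accession order and pair no samples.

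The poor libraries held 29 counts of Sln, 28 of Mybphl, 24 each of Tmem163 and Mlana, 33 of Hamp and 40 of Fgf12. The fold changes of these genes therefore rest on few counts.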

Other observations

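Cyp2e1 and Vdr were named after their values were seen. Cyp2e1, a cytochrome, was between 0.731 and 11.6 CPM in the rich and at most 0.927 CPM in the poor libraries (log2 fold change 3.54, edgeR adjusted p = 5.42e-08), with 14 of 15 rich libraries above every poor one, and did not pass in the other 45 (slope 0.13, adjusted p = 0.200). Vdr, the vitamin D receptor, had a mean of 1.36 CPM, just above the 1 CPM needed for a test, with medians of 2.31 CPM in the rich and 0.489 CPM in the poor libraries. It had a log2 fold change of 3.22 (edgeR adjusted p = 1.05e-05) and a slope of 0.06 (adjusted p = 0.214). The difference between the sets also passed with no filter.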
